A study of Mus musculus with 8 samples.

Results

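RNA-binding proteins that direct alternative splicing in heart muscle, the 10 genes Rbm20, Rbm24, Mbnl1, Mbnl2, Celf1, Celf2, Rbfox1, Rbfox2, Ptbp1 and Qk, were followed at the RNA level in hearts of wild-type mice and of mice labelled as knockouts of Nbdy. They were chosen by gene symbol, each symbol was found once in the annotation, and all 10 were among the 13336 genes tested, out of 38293 gene identifiers in the count table. The libraries came from the left ventricle of 4 wild-type (WT) mice and 4 mice labelled as knockouts (KO) of Nbdy, also called mORF4, the gene of a small protein bound to the machinery that removes mRNA caps. All 8 mice were untreated males of 8 weeks on a C57BL/6 background. Each library is 1 heart, and WT libraries carry replicate numbers 1 to 4 and KO libraries 5 to 8. How the KO allele was made and in which cells it acts is not stated in the labels, nor whether WT and KO mice were littermates.

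Most genes of heart muscle are spliced into several isoforms, and the choice shifts between the fetal and the adult heart. Proteins of the muscleblind (Mbnl) and CUG-binding (Celf) families often act against each other on the same exons, Rbfox proteins bind the word UGCAUG beside the exons they control, and Rbm20 keeps exons out of the titin mRNA. These proteins act on exon use, which a count per gene does not show, so the data give the amount of each regulator's RNA and of its targets' RNA and not the splicing of any exon.

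Expression of all 10 regulators was detected in every library, and none differed between genotypes by a margin that passed the test. The value furthest from 0 was that of Mbnl1, with a mean of 144 CPM in WT and 113 in KO (CPM is the count divided by the scaled size of the library), and its adjusted p was 0.734. Every other member had a log2 fold change between -0.13 and 0.17. Of the 10 members, 0 passed in edgeR's quasi-likelihood test at an adjusted p of 0.05, where 0.0225% of all genes tested passed. DESeq2 and limma-voom also called 0 of them. At an unadjusted p under 0.05 the count was 1 of 10, where the share over all genes was 6.4%. The KO and WT ranges overlapped for all 10 members, while 4.12% of all genes tested had ranges that do not overlap. The median log2 fold change of the members was 0.03, with 6 positive and 4 negative, and the median over all genes tested was -0.0032. With 1 library left out, the members' median ran from -0.040 (WT replicate 1) to 0.058 (KO replicate 5), so it had no stable sign.

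Total counts ran from 11101901 to 14699949 per library, and single members held from 276 counts (Rbfox1 in WT replicate 2) to 3367 counts (Rbm20 in KO replicate 5) in a library. Nbdy, the targeted gene, averaged 19.4 ± 0.470 CPM over WT hearts and 9.92 ± 0.412 over KO hearts (SD, n = 4 each), and every KO library held Nbdy RNA, at a level below that of every WT library (log2 fold change -0.97 ± 0.11 (SE), adjusted p = 0.0060 in edgeR). Without KO replicate 6 its adjusted p was 0.056. A pair of WT libraries stood apart in other genes. WT replicate 1 had 29.2% of its counts in mitochondrially encoded genes, while WT replicates 2 to 4 had 19.4% to 19.9% and the KO libraries 23.0% to 26.7%. WT replicate 2 had 260.5 CPM of the stress-induced gene Atf3, against 5.94 to 25.1 CPM in the other 7 libraries. Where leaving out either of these libraries moves a member's log2 fold change by more than 1.5 times or turns its sign, the value stands beside that member. The labelled tissue was checked against its markers. The 8 cardiomyocyte markers summed to between 61919 and 76069 CPM in every library, and of 4 atrial markers Bmp10 had no counts, Sln and Myl7 averaged at most 0.919 CPM in either group, and Myl4 averaged 5.10 CPM in WT and 5.07 CPM in KO. In RNA from whole tissue, fewer cells of a type and less RNA per cell cannot be told apart.

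Levels can be compared between genes only per length, given here as CPM per kb. With the merged exons of each gene as its length, Rbm24 had the highest level, 58.4 ± 7.86 CPM per kb (SD, n = 8), followed by Rbm20 at 32.6 ± 4.45. These are the members best known for their restriction to striated muscle, and they stood at the 95.5th and 92.1st percentile of the genes tested. The next members were Qk at 13.5 ± 2.45, Ptbp1 at 12.5 ± 1.40 and Rbfox2 at 10.5 ± 0.966 CPM per kb. Mbnl2 had 9.31 ± 1.84, Celf1 8.53 ± 0.774, Rbfox1 7.13 ± 1.37 and Mbnl1 6.87 ± 1.32 CPM per kb. Celf2 had the lowest level, 3.08 ± 0.329, which is the 43.4th percentile. Rbm24 against Rbm20, Rbm20 against Qk and Mbnl1 against Celf2 were the neighbours in this order whose ranges over the 8 libraries did not overlap, and the other 6 neighbouring pairs overlapped.

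The order below Rbm20 depended on the length used. GENCODE lists 25 transcripts of Mbnl1 and 28 of Celf2, and their merged exons come to 18.7 kb and 25.9 kb, while their longest single transcripts are 5.66 kb and 8.86 kb. Divided by the longest transcript, Mbnl1 had 22.7 ± 4.37 CPM per kb and stood behind Rbm24 (66.1 ± 8.89) and Rbm20 (45.3 ± 6.17), whose ranges then overlapped although Rbm24 was higher in 8 of 8 libraries. Celf2 was again last, at 9.005 ± 0.961, but its range overlapped that of Celf1 at 9.18 ± 0.833. Rbm24 and Rbm20 were the upper 2 members with either length.

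**Figure D1:**
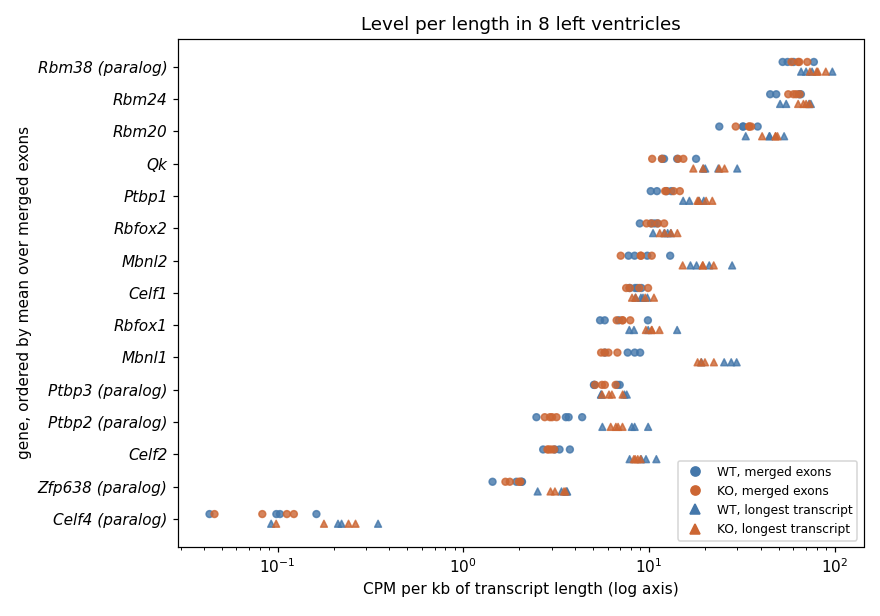
Level of each member and of its tested paralogs in CPM per kb (log axis), 1 point per library, WT in blue and KO in orange, with circles for merged exon length and triangles for the longest transcript. Rbm24 and Rbm20 lie above the other members with both lengths, and Mbnl1 shifts most between them.

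Rbm20, whose loss leaves titin in its long, compliant isoforms, is a gene of 189.8 kb on chromosome 19 (53677306 to 53867080, plus strand, GRCm38). Its level was 218, 219, 262 and 163 CPM in WT replicates 1 to 4 and 236, 235, 199 and 241 CPM in KO replicates 5 to 8. WT replicates 3 and 4 held the highest and the lowest of the 8 values, and all KO values fell between them. WT hearts averaged 215 ± 40.6 CPM and KO hearts 228 ± 19.2 (SD, n = 4 per group). The log2 fold change was 0.08 ± 0.14 (SE) with a 95% interval from -0.22 to 0.39, which is 0.856-fold to 1.31-fold (adjusted p = 0.933 in edgeR). The value was -0.04 without WT replicate 4 and -0.03 with a correction for GC content and gene length.

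Rbm24, a muscle-restricted factor that favours inclusion of exons of sarcomere genes, spans 12.7 kb on chromosome 13 (46418434 to 46431095, plus strand). It had 169, 230.04, 225 and 157 CPM in WT replicates 1 to 4 and 209.8, 217, 197 and 227 CPM in KO replicates 5 to 8. The KO libraries lay within the span of the WT libraries, which held 2 high and 2 low values. The log2 fold change was 0.12 ± 0.14 (SE), with a 95% interval from -0.18 to 0.42 (adjusted p = 0.894 in edgeR). It was positive in every alternative fit, from 0.02 without WT replicate 4 to 0.22 with 1 surrogate variable, and was 0.06 without WT replicate 1 and 0.21 without WT replicate 2.

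Mbnl1 encodes the muscleblind protein whose capture by expanded CUG repeats underlies myotonic dystrophy. The gene spans 156.9 kb on chromosome 3 (60472830 to 60629750, plus strand). It had 144, 168, 157 and 108 CPM in WT replicates 1 to 4 and 103, 108, 113 and 127 CPM in KO replicates 5 to 8. WT replicates 1, 2 and 3 lay above all KO libraries, and WT replicate 4 lay among them. WT hearts averaged 144 ± 25.9 CPM and KO hearts 113 ± 10.02 (SD, n = 4 per group). The log2 fold change was -0.35 ± 0.14 (SE), with a 95% interval from -0.65 to -0.05 (unadjusted p = 0.024, adjusted p = 0.734 in edgeR). That interval excludes 0 before adjustment for the 13336 genes, and the adjusted p misses the threshold. The value was negative in all 17 alternative fits, from -0.47 (WT replicate 4 left out) to -0.27 (WT replicate 2 left out), and the smallest adjusted p among them was 0.430. With the correction for GC content and gene length it was -0.31.

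RefSeq gives Mbnl1 more than one start, and the counts of the gene sum them. The 250 bases ahead of both listed starts are printed here with those of Rbm24, the member with the highest level, to show how unlike the regions ahead of these genes are. Capitals mark matches, on either strand, to the words searched: the E-box CANNTG, the GATA word AGATAA, the CCAAT box, the TATA word TATAAA, the GC box GGGCGG and the MEF2 box. The sequences run 5′ to 3′ on the plus strand and are from RefSeq on GRCm38.p6, at chr3:60472580-60472829, chr3:60500929-60501178 and chr13:46418050-46418299.
Mbnl1 upstream start: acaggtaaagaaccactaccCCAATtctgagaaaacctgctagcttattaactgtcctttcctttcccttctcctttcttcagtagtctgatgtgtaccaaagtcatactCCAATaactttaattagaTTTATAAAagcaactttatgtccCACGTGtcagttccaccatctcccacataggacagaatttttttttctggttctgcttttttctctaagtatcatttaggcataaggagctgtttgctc
Mbnl1 downstream start: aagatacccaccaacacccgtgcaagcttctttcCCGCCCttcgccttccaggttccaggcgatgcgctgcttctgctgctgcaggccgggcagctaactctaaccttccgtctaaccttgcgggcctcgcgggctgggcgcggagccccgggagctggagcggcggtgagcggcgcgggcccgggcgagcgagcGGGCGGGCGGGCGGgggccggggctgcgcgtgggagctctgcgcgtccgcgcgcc
Rbm24: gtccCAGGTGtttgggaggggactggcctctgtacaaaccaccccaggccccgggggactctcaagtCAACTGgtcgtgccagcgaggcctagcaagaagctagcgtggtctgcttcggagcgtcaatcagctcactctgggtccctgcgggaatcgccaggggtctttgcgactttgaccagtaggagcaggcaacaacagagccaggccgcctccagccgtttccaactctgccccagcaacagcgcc
The region ahead of the upstream Mbnl1 start is 38.0% G and C with 1 CG pair, and has 1 E-box, 2 CCAAT matches and 2 overlapping TATAAA matches on opposite strands. The region ahead of the downstream start is 73.6% G and C with 33 CG pairs. It has 4 GGGCGG matches, some of them overlapping in a single run, and none of the other words. That of Rbm24 is 62.4% G and C with 12 CG pairs and has 2 E-boxes. Among all 32851 promoters of the table, whose median is 52.4% G and C, 66.2% hold an E-box in the same window, 33.8% a CCAAT box, 12.4% the TATA word, 32.7% a GC box, 9.99% the GATA word and 0.508% a MEF2 box. A match describes these letters and is no evidence of binding. The table held 14 starts for 8 of the 10 members and none for Rbm20 and Rbfox2.

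Mbnl2, the second muscleblind gene, lies on chromosome 14 (120275669 to 120431697, plus strand). It had 118, 156, 93.1 and 100.4 CPM in WT replicates 1 to 4 and 84.6, 109, 108 and 124 CPM in KO replicates 5 to 8. WT replicate 2 was the highest library and KO replicate 5 the lowest. The log2 fold change was -0.13 ± 0.17 (SE), with a 95% interval from -0.50 to 0.23 (adjusted p = 0.904 in edgeR), and it was 0.04 without WT replicate 2.

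Celf1 and Celf2 encode CUG-binding proteins, which promote exon choices of the fetal heart. Celf1 on chromosome 2 (90940382 to 91019497, plus strand) had 66.4, 77.05, 72.9 and 71.1 CPM in WT replicates 1 to 4 and 63.7, 83.6, 66.7 and 75.0 CPM in KO replicates 5 to 8. Its groups shared almost the same mean, 71.9 ± 4.41 CPM for WT and 72.2 ± 8.95 for KO (SD, n = 4 per group). The 95% interval of its log2 fold change of 0.007 ran from -0.24 to 0.25, or 0.849-fold to 1.19-fold. The sign of so small a value differed between fits, negative in 6 of 17, and the value was -0.03 without WT replicate 1 and 0.04 without WT replicate 2. Celf2, 970 kb of the same chromosome (6539694 to 7509563, minus strand), had 85.4, 97.1, 80.5 and 69.7 CPM in WT replicates 1 to 4 and 73.5, 74.7, 77.1 and 79.9 CPM in KO replicates 5 to 8. The KO libraries lay close together, inside the WT range. Its log2 fold change was -0.12 ± 0.11 (SE), with a 95% interval from -0.37 to 0.12 (adjusted p = 0.865 in edgeR), and -0.04 without WT replicate 2.

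**Figure D2:**
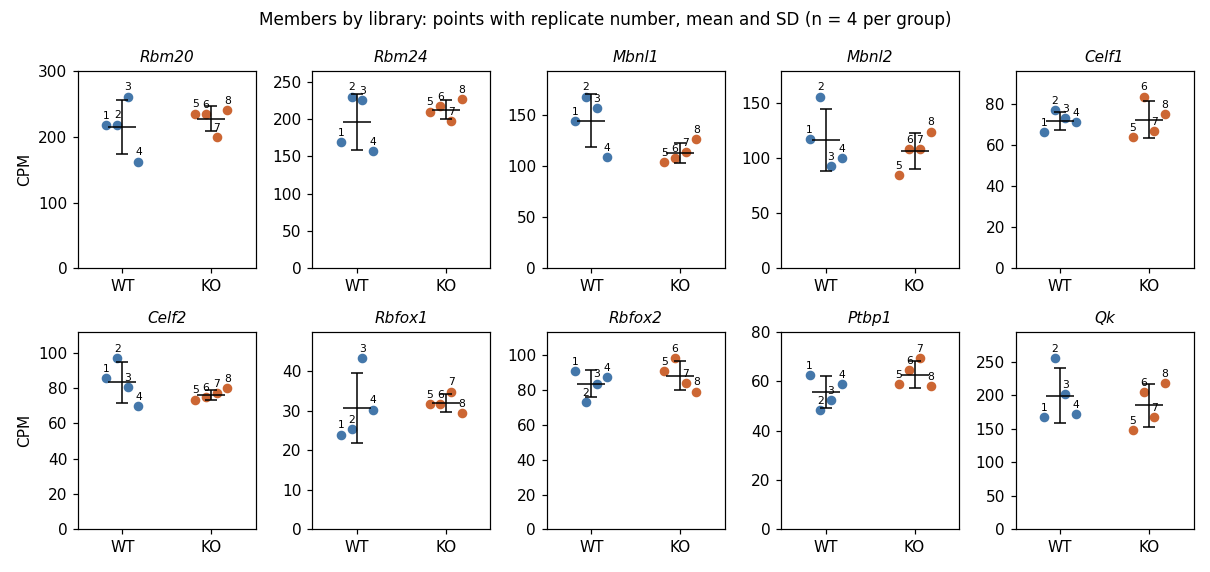
CPM of each member in every library, with the replicate number at each point and the mean and SD of each group (n = 4). The groups overlap in all 10 panels, and the WT points of Rbm20, Rbm24 and Rbfox1 spread more widely than the KO points.

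Rbfox1 encodes the Rbfox protein of neurons and striated muscle, from a gene of 1526 kb on chromosome 16 (5885355 to 7411526, plus strand). Its level was 24.0, 25.4, 43.5 and 30.3 CPM in WT replicates 1 to 4 and 31.8, 31.6, 34.9 and 29.5 CPM in KO replicates 5 to 8. WT replicate 3 was the highest of all libraries and WT replicates 1 and 2 were the lowest. The coefficient of variation was 28.7% in WT, the largest of any member, and 6.98% in KO. Its log2 fold change was 0.05 ± 0.17 (SE), with a 95% interval from -0.31 to 0.42 (adjusted p = 0.970 in edgeR). It was 0.26 without WT replicate 3, -0.05 without WT replicate 1, -0.03 without WT replicate 2 and -0.01 when scaled to library totals.

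Rbfox2, which is expressed in many tissues, lies on chromosome 15 (77078990 to 77307004, minus strand). It had 90.6, 72.7, 83.6 and 87.2 CPM in WT replicates 1 to 4 and 90.9, 98.4, 84.0 and 79.0 CPM in KO replicates 5 to 8. WT replicate 2 was the lowest library and KO replicate 6 the highest. The log2 fold change was 0.08 ± 0.11 (SE), with a 95% interval from -0.17 to 0.32 (adjusted p = 0.922 in edgeR), and it was 4.6e-04 with the correction for GC content and gene length. It was 0.12 without WT replicate 1 and 0.02 without WT replicate 2, and also 0.02 without KO replicate 6.

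Ptbp1, a repressor of exons that binds pyrimidine-rich RNA, falls to low levels as muscle and nerve cells differentiate. The gene lies on chromosome 10 (79854427 to 79864771, plus strand). It had 62.6, 48.5, 52.4 and 59.1 CPM in WT replicates 1 to 4 and 58.8, 64.4, 69.6 and 57.9 CPM in KO replicates 5 to 8. WT replicates 2 and 3 lay below all KO libraries, and the other WT libraries lay among them. Its log2 fold change of 0.17 ± 0.11 (SE) was the highest of the members, with a 95% interval from -0.07 to 0.42, or 0.950-fold to 1.34-fold (adjusted p = 0.801 in edgeR). It was positive in all alternative fits, from 0.10 with the correction for GC content and gene length to 0.23 without WT replicate 1, and was 0.11 without WT replicate 2.

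Qk encodes quaking, an RNA-binding protein that controls splicing in muscle, glia and vessels and takes part in the making of circular RNA. It lies on chromosome 17 (10202601 to 10319854, minus strand). The levels were 168, 256, 202 and 172 CPM in WT replicates 1 to 4 and 148, 204, 167 and 218 CPM in KO replicates 5 to 8. WT replicate 2 was again the highest library and KO replicate 5 the lowest. The log2 fold change was -0.11 ± 0.16 (SE), with a 95% interval from -0.46 to 0.24 (adjusted p = 0.921 in edgeR). It was -0.18 without WT replicate 1, 0.03 without WT replicate 2, -0.02 without KO replicate 5 and 0.04 with 1 surrogate variable.

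**Figure D3:**
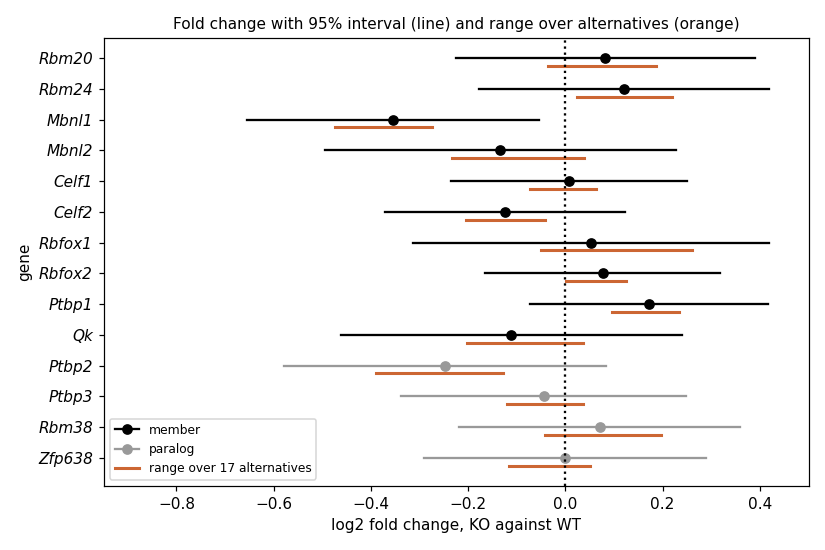
Log2 fold change of KO against WT for the members (black) and for the tested paralogs other than the scarce Celf4 (grey), with 95% intervals and, in orange, the range over 17 alternative fits. The interval of Mbnl1 alone leaves out 0, before adjustment over all genes.

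Exons of Ptbp1, Celf2 and Mbnl2 overlap annotated exons of genes on the opposite strand, by up to 437, 1961 and 86 bases for a single such gene. The strand setting of the counting is not given in the sources used here, so how reads of these stretches were counted is not known. In WT replicate 1 few were counted with the opposite genes. Gm26565 (beside Celf2), Gm26679 (beside Mbnl2), and Gm17134 and Plppr3 (beside Ptbp1) held 0 counts there. E130317F20Rik, also beside Ptbp1, held 6.

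The members did not vary alike between libraries. WT replicate 2 was the highest of the 8 libraries for 5 members (Rbm24, Mbnl1, Mbnl2, Celf2 and Qk) and the lowest for 2 others (Rbfox2 and Ptbp1). WT replicate 4 was the lowest for Rbm20, Rbm24 and Celf2, and KO replicate 5 for Mbnl1, Mbnl2, Celf1 and Qk. WT replicate 3 was the highest for Rbm20 and Rbfox1. The SD was larger in WT than in KO for 8 of the 10 members, all except Celf1 and Rbfox2, and for 64.9% of all genes tested. Whether the mitochondrial share or the stress-induced genes of these libraries bear on the members was not tested.

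**Figure D4:**
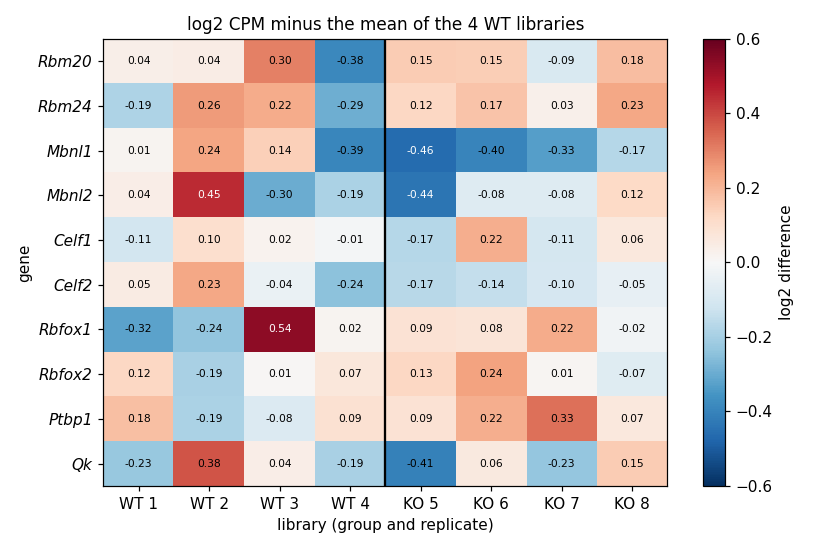
Log2 CPM of each member (rows) in each library (columns) minus the mean of the 4 WT libraries, with red for higher and blue for lower. The column of WT replicate 2 is red for Mbnl2 and Qk and blue for Rbfox1, Rbfox2 and Ptbp1, and the row of Mbnl1 is blue in WT replicate 4 and in all KO libraries.

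Members of a family can stand in for each other, so the share of each gene in its pair was taken per merged exon length. Mbnl1 made up 44.4 ± 5.23% of Mbnl1 and Mbnl2 over WT hearts and 40.6 ± 2.27% over KO hearts (SD, n = 4 per group). Single libraries ran from 40.8% to 51.9% in WT and from 38.9% to 43.9% in KO, so the groups overlapped. Celf1 made up 72.6 ± 2.49% of Celf1 and Celf2 in WT and 74.2 ± 2.26% in KO. Rbfox1 made up 40.1 ± 6.66% of Rbfox1 and Rbfox2 in WT and 40.2 ± 2.59% in KO, with WT replicate 3 at 49.0% and WT replicate 1 at 32.9%. The size of each share depends on the length used. Without division by length Celf1 made up 46.5% of its pair in WT and 48.5% in KO. Mbnl1 then made up 55.4% of its pair in WT and 51.6% in KO. Which gene held the larger share thus changed with the length for the Mbnl and Celf pairs. In all 3 pairs the difference between genotypes was smaller than the SD within WT.

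**Figure D5:**
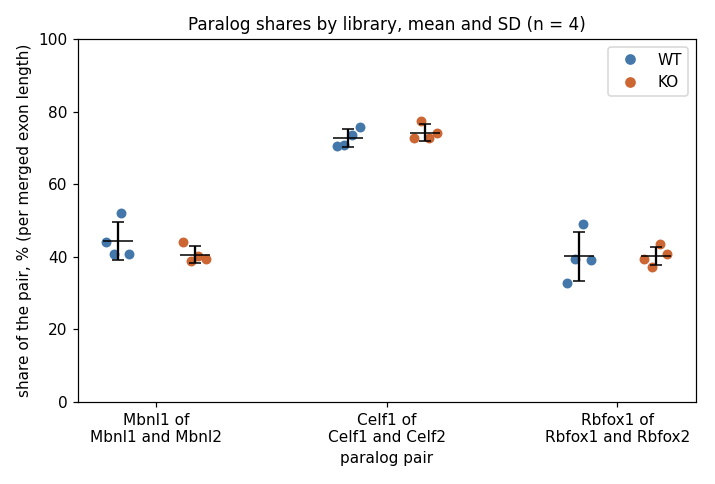
Share of Mbnl1, Celf1 and Rbfox1 in their pairs (percent of counts per merged exon length), 1 point per library with mean and SD (n = 4). The WT and KO points overlap in each pair.

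Close relatives of the members, 10 genes, were examined for comparison, and 5 had enough counts to be tested. Rbm38, the closest relative of Rbm24, had 63.0 ± 8.17 CPM per kb (SD, n = 8), a range that overlapped that of Rbm24. WT hearts averaged 176 ± 31.7 CPM of Rbm38 and KO hearts 185 ± 15.0003 (SD, n = 4 per group), and the log2 fold change stood at 0.07 ± 0.13 (SE). It was -0.04 with the correction for GC content and gene length and 0.0020 without WT replicate 1. Ptbp3 had 5.87 CPM per kb and Ptbp2, the form that replaces Ptbp1 in neurons, 3.25 CPM per kb, below Ptbp1 in the same libraries. Divided by the longest transcript, Ptbp2 had 7.36 and Ptbp3 6.41 CPM per kb, the reverse order, and Ptbp1 18.7. Ptbp2 averaged 32.4 ± 7.19 CPM over WT hearts and 27.2 ± 1.65 over KO hearts (SD, n = 4 per group), a log2 fold change of -0.25 ± 0.15 (SE) that was -0.13 without WT replicate 2. Ptbp3 had a log2 fold change of -0.05 ± 0.14 (SE). Zfp638, a relative of Rbm20 in its RNA-binding parts, had a log2 fold change of -0.0016 ± 0.13 (SE), and Celf4, with 84 counts in all 8 libraries together, one of -0.17 ± 0.45 (SE). None of the 5 passed, with adjusted p from 0.797 to 0.998 in edgeR. Unadjusted p was under 0.05 for 0 of them, where the share over all genes was 6.4%. Mbnl3 held 28 counts in all libraries together, Celf5 37, Rbfox3 3, Celf3 1 and Celf6 0.

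Of 27 other tissue-restricted or auxiliary splicing factors, 25 were tested and 0 passed, with a median log2 fold change of 0.0086. At an unadjusted p under 0.05 the count was 1 of 25, where the share over all genes was 6.4%. Nova2, a splicing factor of neurons and endothelium, averaged 20.8 ± 1.55 CPM over WT hearts and 25.6 ± 4.15 over KO hearts (SD, n = 4 per group), and its log2 fold change stood at 0.30 ± 0.13 (SE). Sf1, which binds the branch point, had a log2 fold change of 0.22 ± 0.11 (SE) and Raver1, a partner of Ptbp1, one of 0.17 ± 0.10 (SE). With the correction for GC content and gene length the values were 0.15 for Nova2, 0.11 for Sf1 and 0.06 for Raver1. Their adjusted p ran from 0.772 to 0.796 in edgeR. They are named for having the smallest p of their list.

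Of 21 genes reported to be spliced under Rbm20, all were tested and 0 passed, with 3 at an unadjusted p under 0.05 (the share over all genes was 6.4%), 10 positive, 11 negative and a median log2 fold change of -0.0076. Ranges that do not overlap were found for 2 of the 21, where the share over all genes tested was 4.12%. Trdn, or triadin, which anchors calsequestrin at the calcium release channel, averaged 219.5 ± 32.9 CPM over WT hearts and 179 ± 16.2 over KO hearts (SD, n = 4 per group), with all KO libraries below all WT libraries. In edgeR its log2 fold change stood at -0.30 ± 0.13 (SE), with an adjusted p of 0.772, and it was -0.19 without WT replicate 2. Named for its small p, it lends the list no support.

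Of 16 genes reported to be spliced under Mbnl, Celf or Rbfox proteins, 15 were tested and 0 passed. At an unadjusted p under 0.05 the count was 1 of 15, where the share over all genes was 6.4%. Log2 fold changes were positive for 5 and negative for 10, with a median of -0.03. Mef2d, a muscle transcription factor with a muscle-specific exon, averaged 167 ± 32.4 CPM over WT hearts and 209.8 ± 23.6 over KO hearts (SD, n = 4 per group), and its log2 fold change stood at 0.33 ± 0.15 (SE). It was 0.21 without WT replicate 2 and 0.20 with 1 surrogate variable. Tbx5 stood at 0.21 ± 0.20 (SE), with 0.04 without WT replicate 2, 0.08 without KO replicate 5 and 0.06 with 1 surrogate variable. Nfix stood at 0.13 ± 0.13 (SE), and the value of Nfix was -0.01 with the correction for GC content and gene length. The 3 adjusted p ran from 0.772 to 0.883 in edgeR.

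Over the 8 libraries, with each group's mean subtracted, the genes most like Rbm20 among 8501 other protein-coding genes of at least 10 CPM were Gprasp1 (Pearson r = 0.978), Lmo7 (r = 0.974) and Hsf1 (r = 0.974). By rank, the Spearman correlation with Rbm20 was 0.905 for Gprasp1, 0.786 for Lmo7 and 0.881 for Hsf1. Lmo7 is one of the reported Rbm20 targets, and whether that bears on its correlation was not tested. Those most like Mbnl1 were Sema3g (r = 0.997), Ralgapa1 (r = 0.994) and Nrf1 (r = 0.988). In all, 40 genes had r above 0.9 with Rbm20 and 60 with Mbnl1. These are descriptions of 8 libraries that share depth and composition effects, picked as the highest of 8501 values.

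Several members are also expressed outside cardiomyocytes, and marker sums of other cell types were therefore set beside them. Over all genes tested, 49.4% of log2 fold changes were positive. All 8 fibroblast markers had negative log2 fold changes, with 0 of 8 passing and sums of 1099 to 1405 CPM in WT and 902 to 1170.2 CPM in KO. The sums over 8 endothelial markers ran from 1621 to 1876 CPM in WT and from 1505 to 1881 CPM in KO, and those over 8 macrophage markers from 173 to 259 CPM in WT and from 184 to 268 CPM in KO. The sums over 8 smooth muscle and pericyte markers ran from 1207 to 1410.3 CPM in WT and from 941 to 1581 CPM in KO. Of these 8 markers, 7 had negative log2 fold changes and 0 passed. All 6 blood markers had positive values, with 0 of 6 passing and sums of 816 to 1784 CPM in WT and 1148 to 2150.3 CPM in KO. The groups overlapped in each of these sums. For single markers, 1 of the 8 fibroblast and 1 of the 8 macrophage markers had all KO libraries below all WT libraries. Over all genes tested, 4.12% had ranges that do not overlap. The part of cell composition in the members' values was not tested.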

How the data were processed

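Poly(A) RNA of 8 left ventricles was sequenced from stranded TruSeq libraries, per the labels' protocols, and STAR 2.7.1a and the build GRCm38 (mm10) are named in the submitters' processing notes. The authors deposited raw counts per Ensembl gene (whole numbers, 1 table); which tool, strand setting and annotation were used for counting is not given in the sources used here. Columns were matched to samples by name. No 2 libraries agreed within sampling noise (the chi-square divided by its degrees of freedom was 10.8 or more for each pair). P-values judge the difference between KO and WT by the spread between these hearts.

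Symbols, positions and lengths came from GENCODE M21 (36429 of 38293 identifiers matched). Genes passing filterByExpr (minimum count 10) were given TMM factors, and KO was compared with WT by edgeR 4.0.16 in R 4.3.3 (glmQLFTest after glmQLFit, two-sided, genotype as the only term), with Benjamini-Hochberg adjustment over 13336 genes and a threshold of 0.05. SE came from the fold change and its F statistic, and 95% intervals from the SE and the test's degrees of freedom. The fit and its intervals were tested on simulated data with known changes, in 50 genes for each size of change. When genes were altered 1.3-fold, 2% were detected, and when altered 1.5-fold, 24%. The share rose to 70% at 2-fold and 100% at 4-fold. Among the unaltered genes 5 were called, and 95.12% of the intervals held the true value. Changes near 1.3-fold thus mostly went undetected, so the count of 0 members passing does not by itself exclude them. The altered genes were drawn at random from tested genes above a low mean count, so these shares are not the members' own. Taken singly, the 95% intervals of Celf1 (0.849-fold to 1.19-fold), Celf2 (0.773-fold to 1.09-fold) and Rbfox2 (0.892-fold to 1.25-fold) stopped short of 1.3-fold in either direction. Those of the other members did not.

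The members and lists were chosen with earlier results of these data known. The text names Nbdy, all members, their tested paralogs, the 3 genes of smallest p in each other list and the 3 genes most like Rbm20 and the member of smallest p; Mbnl3, Celf3, Celf5, Celf6, Rbfox3, Atf3 and the atrial markers fall outside this rule and were named after their values were seen. A few genes picked by this rule are left out of the text. Alternatives were scaling by library totals or by DESeq2 size factors, DESeq2 1.42.0 itself, limma-voom (limma 3.58.1), no filter, 1 CPM in 4 libraries, no mitochondrially encoded genes, 1 surrogate variable (sva 3.50.0), a correction per library for GC content and gene length (splines with 4 degrees of freedom, values for 99.2% of genes), an adjusted p of 0.10 and each library left out. The longest transcript as length was added after the data were seen.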

Additional observations from a re-analysis of the deposited data

Results flagged for a closer look

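The level of Rbm20 in KO replicate 7 was 199.3 CPM, against 235.2 to 241.2 CPM in the other KO libraries, and its gap to the nearest of them was 0.858 of the group's range, above the limit of 0.829 for 4 samples. It was the 1 unusual value among 32 groups of 4 examined (Nbdy, the 10 members and 5 paralogs in each genotype), where chance alone gives about 1 in 20.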

How the results depend on the processing

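No member passed under any of the 17 alternative fits or at an adjusted p of 0.10. The number of genes passing among all tested was 3, and it was 11 with DESeq2, 10 without a filter and 5 with 1 surrogate variable, and ran from 2 to 6 with 1 library left out. Of 424 values of 25 named genes under the alternatives, 392 kept their sign and side of the threshold, 31 changed sign and 1 (Nbdy without KO replicate 6, -0.96, adjusted p = 0.056) no longer passed. All sign changes were in genes that did not pass, and the cause was not tested. The correction for GC content and gene length gave -0.034 for Rbm20, -4.0e-04 for Celf1, 0.033 for Ptbp3, -0.043 for Rbm38, 0.045 for Zfp638 and -0.011 for Nfix. Library totals gave -0.039 for Celf1 and -0.010 for Rbfox1. One surrogate variable gave 0.037 for Qk and 0.031 for Zfp638, limma-voom 0.011 and no filter 0.0016 for Zfp638. With 1 library left out, the genes with a change of sign ran from -0.036 to 0.19 (Rbm20), -0.23 to 0.037 (Mbnl2), -0.074 to 0.063 (Celf1), -0.051 to 0.26 (Rbfox1), -0.20 to 0.031 (Qk), -0.41 to 0.13 (Celf4), -0.12 to 0.037 (Ptbp3) and -0.12 to 0.051 (Zfp638). The groups' difference in each paralog share moved by less than the SD with other lengths; it was 0.13 percentage points for Rbfox1 per merged exon length and -0.027 without length. No paired analysis was possible because WT and KO libraries share no replicate numbers. With 4 hearts a group, the 95% intervals of the members were from 0.484 (Rbfox2) to 0.731 (Rbfox1) log2 units wide.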
